A study of Vicia sativa with 8 samples.

Results

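In common vetch (Vicia sativa), 123 of 71553 unigenes carried a protein match whose text names a light receptor, a component of the circadian clock or a regulator of flowering time. They were chosen by 9 search terms, ignoring case, in the deposited nr annotation: phytochrome, cryptochrome, phototropin, constans, gigantea, pseudo-response regulator, early flowering, flowering locus and late elongated hypocotyl. The search itself used no expression value, but the set was chosen with earlier results of these data known. The term stood in the first protein title for 109 unigenes and only in a later title for 14. The study sequenced RNA of the cultivar Lanjian 3, a legume with a zygomorphic flower, as 1 library for each of 8 organs. The 6 floral organs were the petals, kept apart as dorsal, lateral and ventral, the sepals, the carpels and the stamens, dissected from flowers of floral stage 12, just before opening, on plants about 45 days old. Leaves and roots, the controls of the study, came from 2-week-old seedlings. The plants that bore the flowers were grown in a greenhouse with 16 h of light and 8 h of dark at 22 °C. The paper states this regime for them and not for the seedlings. Every organ was taken in the morning. The order of harvest within the morning was not given, so time of day and organ cannot be fully told apart. Flowers of many plants were pooled. The age of the plant and the kind of organ cannot be told apart between flowers and seedling organs.

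Every value is a measurement of 1 library without a replicate. No test of a difference between organs could be made, and the 95% intervals cover counting error only. Levels are given as RPKM, the reads uniquely aligned to a unigene scaled to the length of the unigene and to the uniquely aligned reads of the library. In a whole organ, fewer cells of a type and less RNA per cell cannot be told apart. A unigene was called enriched in an organ when its RPKM there was more than 2 times that of the highest other organ (the Ratio) and its distance above the mean of the other organs, in units of their SD (the Z-score), passed the cutoff of the study. It was called downregulated when its RPKM was less than 0.5 times that of the highest other organ, with a Z-score below -1.5. The libraries were of like depth, the deepest (sepals) holding 1.17 times the aligned reads of the shallowest (leaves). Where no read was counted, as many as 3 could have been missed, equal to 0.478 RPKM in sepals and 0.561 in leaves for a unigene 1 kb long. The organ labels were set against fixed marker lists. The 9 unigenes named as chlorophyll a/b binding proteins of green tissue took 5320 RPM (reads per 1000000 aligned reads of the library) in leaves, 1250 in sepals, 102 to 579 in the other floral organs and 40.4 in roots. The pair of unigenes for the petal and stamen identity genes PISTILLATA and APETALA3 took 148 to 220 RPM in the petals and stamens and at most 4.78 in the other organs, and the pair for AGAMOUS took 82.7 in stamens, 69.5 in carpels and at most 3.34 elsewhere. The 39 pollen-named unigenes took 2150 in stamens and 878 in ventral petals, against 276 to 472 in the other organs.

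Plants read light through several receptor families. Phytochromes sense red and far-red light, while cryptochromes and phototropins sense blue light. Phototropins are plasma membrane kinases that steer bending toward light, chloroplast movement and the opening of stomata, and cryptochromes and phytochromes act on growth and flowering through transcription factors. The circadian clock is a loop in which morning factors such as LATE ELONGATED HYPOCOTYL (LHY) and CIRCADIAN CLOCK ASSOCIATED 1 alternate with pseudo-response regulators, GIGANTEA and the EARLY FLOWERING proteins of the evening, and the clock and the receptors together set the level of CONSTANS, which in the leaves of Arabidopsis switches on the mobile flowering signal FLOWERING LOCUS T.

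The members were assigned to families by the protein they matched, and ranged from 152 to 5144 bp with a median of 444 bp. They hold 24 CONSTANS or CONSTANS-like unigenes, 19 pseudo-response regulators, 13 phototropins, 12 cryptochromes, 12 EARLY FLOWERING unigenes, 12 phytochrome signalling unigenes, 7 phytochrome receptors, 7 GIGANTEA unigenes, 7 FLOWERING LOCUS unigenes, 1 LHY unigene and 9 others. The names rest on similarity to proteins of other species, and 47 members had a match with an E-value above 1e-10. Several unigenes named below are among these 47, and the limit is not repeated at each name. The 123 members shared 100 protein entries, so unigenes of 1 family can be fragments of the same gene, and reads shared by near-identical copies cannot be placed. Together they had 154088 reads. Summed over all organs a member had a median of 894 reads, with 4 the fewest and 6227 the most, and 119 members passed the minimum of 30 reads used for the comparisons of fold. A read was found in every organ for 110 members, or 89.4%, against 66.9% of all unigenes.

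Leaves were the highest organ of more members than any other organ was, and carpels the lowest. Of the 119 members with 30 or more reads, 41 (34.5%) had their highest RPKM in leaves, where 12% of all 57576 unigenes with as many reads did. Another 23 members were highest in sepals (19.3%, against 9.13% of all) and 21 in lateral petals (17.6%, against 11.3% of all), followed by 11 in dorsal petals (9.24%, against 9.92%), 10 in roots (8.4%, against 20%), 7 in stamens (5.88%, against 14.2%), 3 in ventral petals (2.52%, against 7.42%) and 3 in carpels (2.52%, against 16%). Carpels held the lowest RPKM of 51 members (42.9%, against 31% of all), roots that of 26 (21.8%, against 13.5%) and stamens that of 22 (18.5%, against 11.9%). Leaves were the lowest organ of only 8 (6.72%, against 21.9%), lateral petals of 6 (5.04%, against 6.69%), sepals of 3 (2.52%, against 5.79%), dorsal petals of 2 (1.68%, against 5.54%) and ventral petals of 1 (0.84%, against 3.7%). The members took 7020 RPM in leaves, 4070 in sepals, 3950 (dorsal), 3670 (lateral) and 3290 (ventral) in petals, 1070 in carpels, 2020 in stamens and 1940 in roots. Phototropins alone were 40.5% of the members' reads in leaves, and without them the members took 4180 RPM in leaves, still above the 3440 in sepals.

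**Figure D1:**
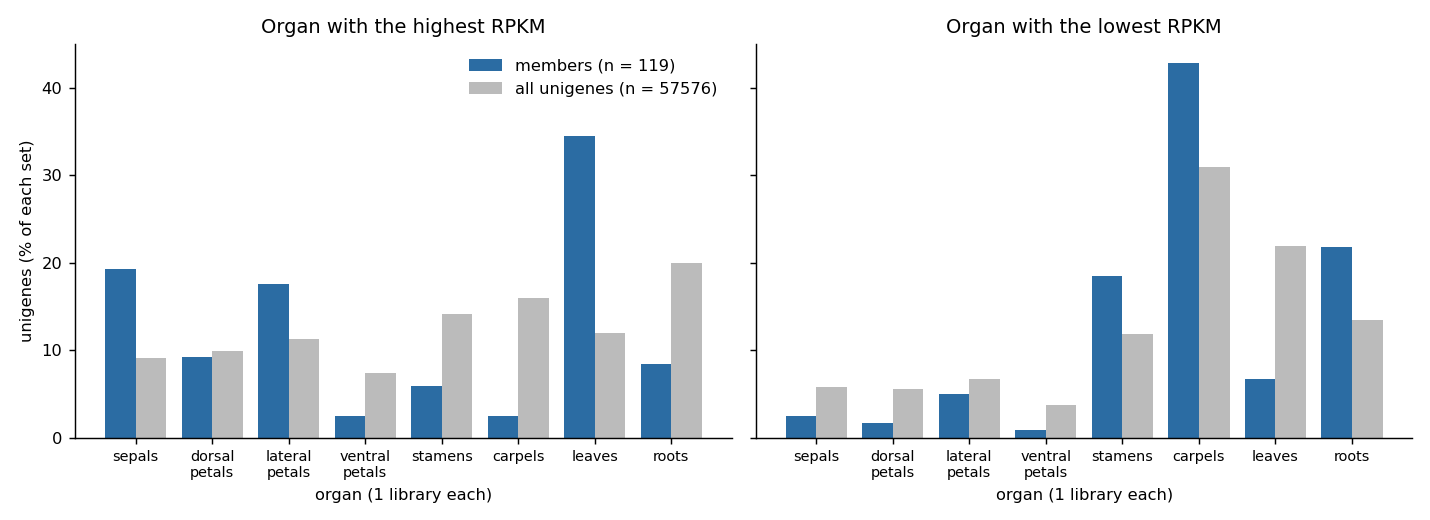
Percentage of unigenes with at least 30 reads (vertical axis) whose highest RPKM (left panel) or lowest RPKM (right panel) falls in each of the 8 organs, for the 119 members (blue) and all 57576 unigenes (grey). Leaves are the highest organ of 34.5% of the members and 12% of all unigenes, and carpels the lowest organ of 42.9% and 31%.

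By the rule of the study, 24 of 123 members were enriched in leaves (19.5%, against 4.03% of all unigenes). They were 8 phototropins, 6 CONSTANS or CONSTANS-like unigenes, 4 phytochrome signalling unigenes, 2 cryptochromes, 1 pseudo-response regulator, LHY, 1 CONSTANS interacting protein and 1 unigene matching SUPPRESSOR OF OVEREXPRESSION OF CONSTANS 1. Their level in leaves was 2.03 to 64.2 times that of the next organ, with a median of 3.17, and the next organ was the sepals for 20 of the 24. The green tissue list ordered leaves and sepals in the same way, and its part in these values was not tested. Without the phototropins, 16 of 110 members were enriched in leaves (14.5%). Few members were enriched elsewhere. There was 1 in sepals (background 1.2%), 1 in dorsal petals (background 0.646%), 2 in stamens (background 3.93%) and 2 in roots (background 6.18%), and 0 in lateral petals (background 0.608%), ventral petals (background 1.29%) and carpels (background 5.61%). In all, 30 members were enriched in some organ (24.4%, against 23.5% of all unigenes). Both stamen calls, Unigene36989 with 8 reads and Unigene46727 with 3 reads in stamens, rested on few reads. These 2 were chosen for mention after their values were seen.

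Downregulation was called in carpels for 37 of 123 members (30.1%, against 17.5% of all unigenes), in stamens for 15 (12.2%, against 5.39%), in roots for 9 (7.32%, against 4.29%), in leaves for 2 (1.63%, against 8.39%) and in sepals for 1 (0.813%, against 0.692%). No member was downregulated in dorsal (background 0.577%), lateral (background 0.746%) or ventral petals (background 0.766%), and 53 were downregulated in some organ (43.1%, against 34% of all unigenes). The 37 members low in carpels had 8 to 161 reads there, and their carpel RPKM was 4.42% to 31.9% of that in their highest organ, with a median of 15.7%. They included all 7 GIGANTEA unigenes and 10 of the 19 pseudo-response regulators. In stamens, 5 of the 15 were phytochrome receptors.

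Phototropins reached the highest leaf levels among the light receptors. The 8 phototropin unigenes enriched in leaves fell into 2 shapes, described here as seen and not tested. In the first, shown by 3 unigenes, the leaf level was 7.05 to 8.86 times that in sepals, the next organ, and carpels stood at 0.533% to 0.716% of leaves. Unigene70534, matched to phototropin-1B of rice, had an RPKM of 693 in leaves, against 85.8 in sepals, 48 (dorsal), 28.7 (lateral) and 25.2 (ventral) in petals, 4.96 in carpels, 10.3 in stamens and 4.35 in roots. Its leaf level was 8.08 times the sepal level (95% interval 7.45 to 8.76). Unigene67908, matched to a phototropin of the moss Physcomitrella, had an RPKM of 579 in leaves, against 82.1 in sepals, 40.5 (dorsal), 20.2 (lateral) and 21.5 (ventral) in petals, 3.09 in carpels, 17.4 in stamens and 5.34 in roots. Unigene70291 matched PsPK4, a phototropin-like kinase of pea, and had an RPKM of 420 in leaves, against 47.4 in sepals, 33.7 (dorsal), 23.1 (lateral) and 15.5 (ventral) in petals, 2.81 in carpels, 2.53 in stamens and 2.04 in roots. All 3 descended in the same order over the perianth, from sepals through dorsal petals to the other petals, and in roots they stood at 0.486% to 0.923% of the leaf level.

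The second shape, in 5 unigenes, had a smaller gap between leaves and sepals and more reads in carpels. Here leaves were 2.45 to 3.42 times as high as sepals, and carpels stood at 6.74% to 10.7% of leaves. Unigene67581, which matched phototropin 2 of Arabidopsis, had an RPKM of 413 in leaves, against 121 in sepals, 82 (dorsal), 69.4 (lateral) and 67.5 (ventral) in petals, 29.8 in carpels, 9.27 in stamens and 0.853 in roots. Unigene66200, Unigene67628 and Unigene45787 matched the same fern phototropin 2 and may be parts of 1 gene. Their leaf RPKM was 253, 219 and 402, against sepal values of 103, 74.3 and 142 and root values of 1.7, 1.48 and 0.623. Unigene3266, matched to another moss phototropin, had 305 reads in leaves, against 112 in sepals, 1 in stamens and 2 in roots. In carpels each of these 5 unigenes was higher than in stamens, while in the first 3 phototropins carpels were above stamens only in Unigene70291, by 18 reads against 16.

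A single phototropin unigene was enriched in a petal. Unigene8956, 3202 bp long and matched to phototropin-2 of tomato, had an RPKM of 66.6 in dorsal petals, against 5.97 in sepals, 15.8 in lateral petals, 20.5 in ventral petals, 0.517 in carpels, 1.98 in stamens, 17 in leaves and 0.16 in roots. Dorsal petals, the standard of the legume flower, thus stood above every other organ. Their level was 3.24 times that of ventral petals (95% interval 2.88 to 3.65), the next organ, and 4.23 times that of lateral petals (3.72 to 4.81). It was the only member enriched in dorsal petals. The remaining 4 phototropin-matched unigenes, with matches to algal, faba bean and Arabidopsis proteins, were not enriched anywhere.

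**Figure D2:**
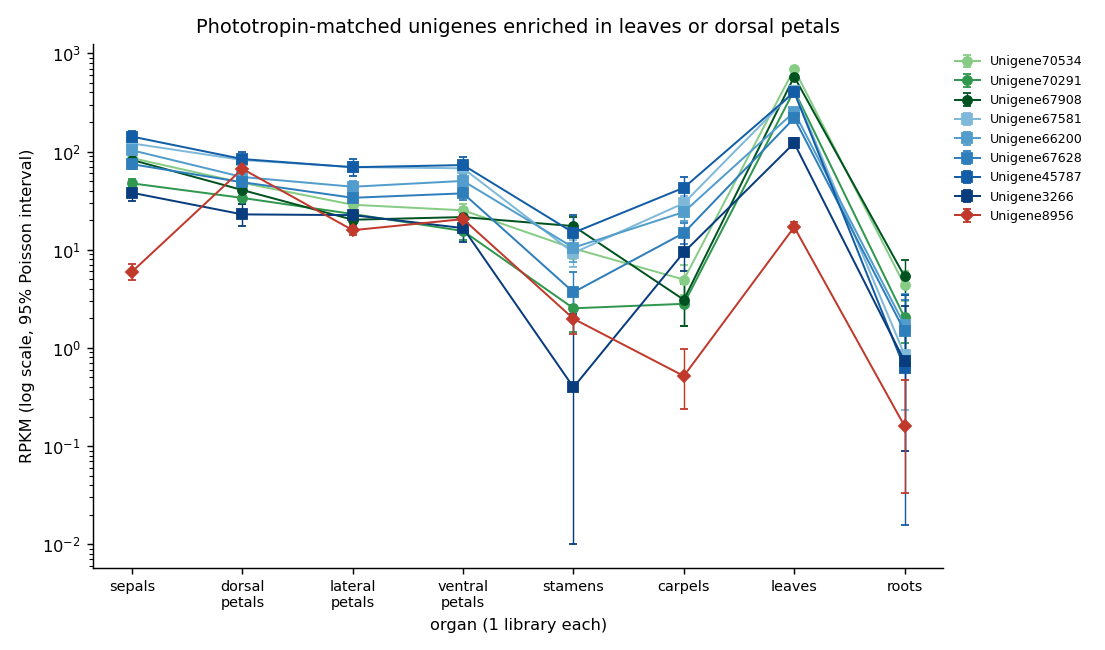
RPKM on a log axis in each of the 8 organs for the 9 phototropin-matched unigenes called enriched, with 95% Poisson intervals as bars. Green lines are the 3 unigenes with the widest gap between leaves and the other organs, blue lines the other 5 enriched in leaves, and the red line is Unigene8956, which stood at 66.6 in dorsal petals and 17 in leaves.

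The phytochrome receptor unigenes were all highest in leaves, by a narrow margin. Of the 7 unigenes, 4 matched phytochrome A, the receptor that accumulates in the dark and responds to far-red light, and 3 matched phytochrome B, the main receptor of red light. The highest organ exceeded the next by only 1.09 to 1.35 times, and none was enriched in an organ. Unigene71128, the phytochrome A unigene with the most reads, had an RPKM of 91 in sepals, 87.2 (dorsal), 76.1 (lateral) and 59.5 (ventral) in petals, 20 in carpels, 51.2 in stamens, 114 in leaves and 89.4 in roots. Among the floral organs it was lowest in carpels, where it was called downregulated. For phytochrome B, Unigene72008 had an RPKM of 51.4 in sepals, 30.7 (dorsal), 29.3 (lateral) and 40.1 (ventral) in petals, 23.5 in carpels, 20.6 in stamens, 65.3 in leaves and 24.5 in roots. The receptors parted in roots and carpels. As a percentage of RPKM summed over the organs, roots held 15.2% to 18.4% of the phytochrome A unigenes and 6.47% to 9.86% of the phytochrome B unigenes. Carpels held 2.09% to 4.68% of phytochrome A and 7.56% to 9.92% of phytochrome B. In stamens the ranges overlapped, at 2.34% to 8.71% of phytochrome A and 1.36% to 7.23% of phytochrome B, and stamens were below carpels in each of the 3 phytochrome B unigenes. In the phytochrome A unigene Unigene68712, dorsal petals had 170 reads and ventral petals 72, a ratio of 2.31 (95% interval 1.74 to 3.09).

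Phytochrome signalling unigenes went to opposite organs within 1 protein family. PHYTOCHROME KINASE SUBSTRATE proteins (PKS) bind phytochromes and phototropins at the membrane and take part in phototropic bending in Arabidopsis. Leaves held nearly every read of a PKS4 match, Unigene579, with 89 reads in leaves, against 3 in sepals, 0 in each kind of petal, 0 in carpels, 0 in stamens and 0 in roots. Unigene4704, matched to PKS2, was alike, with 64 reads in leaves, against 0 in sepals, 0 in each kind of petal, 1 in carpels, 1 in stamens and 0 in roots. Their leaf levels were 34.8 (95% interval 11.5 to 172) and 64.2 (11.1 to 2580) times those of the next organ. Another 3 PKS unigenes were petal and stamen unigenes instead. Unigene58612, the other PKS4 match, had 29 reads in sepals, 82 (dorsal), 82 (lateral) and 107 (ventral) in petals, 0 in carpels, 75 in stamens, 4 in leaves and 6 in roots. Unigene61266, matched to a PKS1-like protein of Medicago, had 20 reads in sepals, 111 (dorsal), 87 (lateral) and 103 (ventral) in petals, 3 in carpels, 60 in stamens, 6 in leaves and 3 in roots. The second match to that protein, Unigene51533, had 31, 32 and 35 reads in dorsal, lateral and ventral petals and 25 in stamens, against 0 in carpels, 1 in leaves and 2 in roots. Sepals lay between, with 18 to 29 reads in these 3 unigenes.

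**Figure D3:**
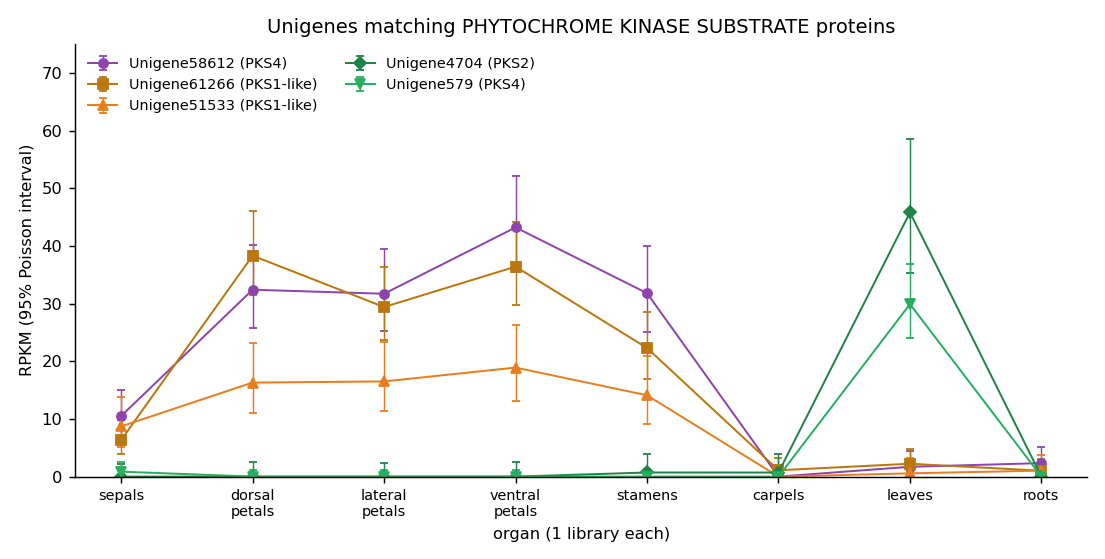
RPKM in each of the 8 organs for the 5 unigenes matching PHYTOCHROME KINASE SUBSTRATE proteins, with 95% Poisson intervals as bars. Unigene4704 and Unigene579 (green) stand at 45.8 and 29.9 in leaves and at most 0.859 elsewhere, while the other 3 are highest in ventral or dorsal petals and at most 2.34 in carpels, leaves and roots.

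Other signalling members also differed by organ. Unigene70164 matched phytochrome-associated protein 3, another name of the growth regulator PHYTOCHROME INTERACTING FACTOR 3 of Arabidopsis, and had an RPKM of 312 in leaves, against 50.9 in sepals, 35.3 (dorsal), 15.5 (lateral) and 9.14 (ventral) in petals, 5.22 in carpels, 3.2 in stamens and 1.91 in roots. Its leaf level was 6.12 times the sepal level (95% interval 5.48 to 6.86). Along the dorsoventral axis it descended too, with 237 reads in dorsal and 60 in ventral petals, a ratio of 3.86 (2.9 to 5.22). EARLY-PHYTOCHROME-RESPONSIVE1, a MYB-related factor of the LHY kind, was matched by a pair of unigenes with different peaks. Unigene56529 had 161 reads in leaves, against 58 in sepals, 15 to 47 in the other floral organs and 2 in roots. Unigene58883 had 184 reads in stamens, against 115 in ventral petals, 76 in lateral petals, 11 in carpels and 33 in leaves. Ventral petals and stamens were also the organs with the most pollen-named reads, and the part of pollen in this value was not tested. Unigene57411, matched to PHYTOCHROME A SIGNAL TRANSDUCTION 1, was highest in lateral petals, with an RPKM of 138, against 24.7 in carpels and 34.5 in leaves. Unigene68033 and Unigene102, which matched PHYTOCHROME AND FLOWERING TIME 1, a subunit of the Mediator complex, were highest in roots (59.7) and leaves (40.3) and ranged no more than 3.77-fold and 2.75-fold over the organs.

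Matches to cryptochrome 1 and cryptochrome 2 differed in their leading organ. All 3 unigenes matching cryptochrome 1, which restrains stem growth in blue light, were highest in leaves, and 2 of them were enriched there. Unigene70678 had an RPKM of 213 in leaves, against 80.6 in sepals, 86.7 (dorsal), 77.9 (lateral) and 62.3 (ventral) in petals, 21.9 in carpels, 21.2 in stamens and 23.5 in roots. Its leaf level was 2.45 times that of dorsal petals (95% interval 2.24 to 2.7). Unigene65312 had 1020 reads in leaves, against 535 in sepals, 360 to 457 in the petals, 102 in carpels and 115 in roots. Cryptochrome 2, the blue-light receptor that stabilises CONSTANS in Arabidopsis, was not led by leaves. In Unigene46277 the RPKM was 254 in sepals, 323 (dorsal), 330 (lateral) and 312 (ventral) in petals, 58 in carpels, 112 in stamens, 296 in leaves and 132 in roots. The petals, sepals and leaves lay close together there, and carpels were called downregulated. Unigene52954, a shorter cryptochrome 2 match, had 75 reads in sepals, 128 (dorsal), 95 (lateral) and 67 (ventral) in petals, 2 in carpels, 33 in stamens, 16 in leaves and 3 in roots, with dorsal petals 1.87 times as high as ventral petals (1.38 to 2.55). Cryptochromes of the DASH type, which repair DNA or act in organelles in other species, were low: Unigene10939 had 46 reads in dorsal and 41 in lateral petals and 15 in ventral petals, against 12 in leaves and 2 in roots. Unigene62068 had the most reads of this group, 1341 in leaves and 895 in sepals, but its match is to a diatom photolyase at an E-value of 1e-07. CIB1, a transcription factor that binds cryptochrome 2 in Arabidopsis, was matched by Unigene61598, with an RPKM of 64 in lateral and 61.6 in dorsal petals and 58.2 in stamens, against 10.1 in carpels and 26.6 in leaves.

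Leaves and sepals led several members of the CONSTANS family. Its members carry B-box zinc fingers, and most matches were to CONSTANS-like proteins rather than to CONSTANS itself. Unigene69830, matched to CONSTANS-LIKE 3 of Arabidopsis at an E-value of 4e-09, had 1813 reads in leaves, against 272 in sepals, 11 (dorsal), 5 (lateral) and 23 (ventral) in petals, 13 in carpels, 1 in stamens and 19 in roots. Its leaf level was 7.82 times that in sepals (95% interval 6.88 to 8.92). Unigene653 repeated this pattern at a lower level, with 211 reads in leaves, against 27 in sepals, 0 (dorsal), 0 (lateral) and 3 (ventral) in petals, 1 in carpels, 1 in stamens and 0 in roots. Leaves and sepals thus held nearly all reads of both. Unigene52244 matched CONSTANS 1 of tomato and had an RPKM of 277 in leaves, against 100 in sepals, 35 (dorsal), 29.7 (lateral) and 52.6 (ventral) in petals, 49.6 in carpels, 58.6 in stamens and 8.13 in roots. Unigene19936, matched to a CONSTANS-like protein of alfalfa, had a leaf RPKM of 291, against 93 in sepals and 17.8 in roots, and Unigene49899 had one of 251, against 119 and 26.4. The smallest of the 6 leaf calls, Unigene47787, rested on 42 reads in leaves.

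Some other CONSTANS-like members were highest in lateral petals and low in carpels and roots, but not low in leaves. Unigene68300 and Unigene57650 both matched CONSTANS-LIKE 13 and were downregulated in carpels and roots. The first had an RPKM of 84.7 in sepals, 138 (dorsal), 152 (lateral) and 89 (ventral) in petals, 11.8 in carpels, 92.7 in stamens, 67.9 in leaves and 7.07 in roots. Unigene57650 had an RPKM of 260, 245 and 216 in lateral petals, dorsal petals and sepals, against 27.9 in carpels, 200 in leaves and 25.2 in roots. Unigene56958 shared the low carpel and root values, at an RPKM of 12.6 and 8.4, with 130 in lateral petals and 121 in leaves. Unigene50709 and Unigene8436, outside the naming rule and chosen after their values were seen, were also highest in lateral petals but low in leaves. Unigene50709 had an RPKM of 87.8 in lateral petals and 11.7 in leaves, its lowest organ. Unigene8436 had 14.8 in lateral petals and 4.23 in leaves, where it was called downregulated. A single unigene of the family was enriched in roots. Unigene3185, matched to a CONSTANS protein of pine, had 141 reads in roots, against 12 in sepals, 24 (dorsal), 16 (lateral) and 16 (ventral) in petals, 16 in carpels, 11 in stamens and 29 in leaves. The root level was 4.46 times that in leaves (95% interval 2.97 to 6.9). The other root call, Unigene35561 with 13 reads in roots, matched PHOTOPERIOD-INDEPENDENT EARLY FLOWERING and was chosen for mention after its values were seen.

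Proteins around CONSTANS also separated by organ. Unigene71723, matched only weakly to CONSTANS interacting protein 7 of tomato, was a petal unigene with an RPKM of 88.6 (dorsal), 99.4 (lateral) and 100 (ventral) in petals, against 16.2 in sepals, 12.5 in carpels, 7.81 in stamens, 20.9 in leaves and 26.5 in roots. The highest petal was 1.13 times the lowest, and the lowest petal was 3.35 times the highest of the other organs. Unigene45029 and Unigene23364 matched CONSTANS interacting protein 1, also only weakly, at E-values of 8e-06 and 3e-06. Both were downregulated in roots, with RPKM of 30.4 and 19.6 there, against 411 and 286 in lateral petals. SUPPRESSOR OF OVEREXPRESSION OF CONSTANS 1, a MADS-box factor that promotes flowering, was matched by Unigene59869. It had 54 reads in leaves, against 6 in sepals, 4 (dorsal), 2 (lateral) and 2 (ventral) in petals, 1 in carpels, 0 in stamens and 21 in roots. No member was named FLOWERING LOCUS T. Unigene25605, outside the members and chosen after its values were seen, matched an FT-like protein of plane tree and had 110 reads in leaves and 22 in sepals, 1 in lateral petals and 0 in the other organs.

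The GIGANTEA unigenes were highest in petals. The protein is a large plant-specific clock component that stabilises the light-sensing F-box protein ZEITLUPE in Arabidopsis. Lateral petals were the highest organ of 6 of its 7 unigenes, and the seventh, Unigene29300, had 80 reads in lateral and 79 in dorsal petals. Unigene53091, the one with the most reads, had an RPKM of 138 in sepals, 257 (dorsal), 312 (lateral) and 238 (ventral) in petals, 18.5 in carpels, 70.8 in stamens, 71.1 in leaves and 131 in roots. Most organs stood in similar proportions in all 7, and stamens did not. Relative to the highest organ, sepals stood at 44.3% to 61.6%, leaves at 18.6% to 38.2%, roots at 35.5% to 57.5% and carpels at 5.28% to 17.5%. Stamens stood at 11.1% to 22.7% in 3 unigenes and at 48.7% to 76.2% in the other 4. In Unigene64977 stamens had an RPKM of 20.4 and lateral petals 147, whereas in Unigene43757 stamens had 219 and lateral petals 327. The 7 unigenes matched 7 different protein entries, and whether they stem from 1 gene or several was not tested.

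Pseudo-response regulators were mostly sepal-high and carpel-low. Several of these proteins, though not every one so named, repress the morning genes of the clock in waves over the day. Sepals were the highest organ of 12 of the 19 unigenes, and carpels or stamens the lowest of 14. At the median, the RPKM relative to the highest organ was 100% in sepals, 83.8% (dorsal), 61.8% (lateral) and 60.4% (ventral) in petals, 17.4% in carpels, 27.4% in stamens, 70.2% in leaves and 43% in roots. The unigenes divided most in leaves. Unigene66926, matched to pseudo-response regulator 9 of Arabidopsis, had an RPKM of 129 in sepals, 80.9 (dorsal), 76.8 (lateral) and 80.4 (ventral) in petals, 7.56 in carpels, 35.3 in stamens, 16.9 in leaves and 24.1 in roots. Its sepal level was 7.63 times its leaf level (95% interval 5.93 to 9.95). Unigene5767, also a pseudo-response regulator 9 match and the member of the family with the most reads, was closer to level. It had an RPKM of 30.2 in sepals and 25.1 in leaves, a ratio of 1.21 (1.05 to 1.39). Unigene65815, matched to pseudo-response regulator 5, was alike, with a ratio of 1.23 (1.06 to 1.42). Unigene63329, matched to pseudo-response regulator 2, had 525 reads in sepals and 32 in leaves, a ratio of 14 (9.78 to 20.6). The opposite held for Unigene70000, matched to pseudo-response regulator 7 and the only family member enriched in leaves, with an RPKM of 104 in leaves, against 51.2 in sepals, 39 (dorsal), 34.7 (lateral) and 41.3 (ventral) in petals, 18.1 in carpels, 41.4 in stamens and 11.7 in roots. Its leaf level was 2.03 times that in sepals (1.78 to 2.31), just past the threshold of 2. Unigene63204, a pseudo-response regulator 37 match with 2410 reads in all, had an RPKM of 27.4 in carpels, where it was called downregulated, against 150 in sepals and 119 in leaves. Unigene67486, matched to pseudo-response regulator 3, had an RPKM of 75.3 in dorsal and 38.5 in ventral petals, a ratio of 1.96 (1.63 to 2.36).

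EARLY FLOWERING 4, a small protein of the evening complex of the clock, was matched by 4 unigenes with 3 different patterns. Unigene63602 was enriched in sepals, the only such member, with an RPKM of 206 in sepals, against 67.3 (dorsal), 72.5 (lateral) and 61.5 (ventral) in petals, 29.5 in carpels, 42.4 in stamens, 0.646 in leaves and 34.9 in roots. In leaves it had 2 reads, so that sepals were 319 times as high (95% interval 88 to 2640). Unigene14472, matched to the same maize protein, was low in sepals, where it was called downregulated, and had an RPKM of 18.3 in sepals, 73.2 (dorsal), 76.1 (lateral) and 67.6 (ventral) in petals, 33.7 in carpels, 80.5 in stamens, 35.6 in leaves and 28.2 in roots. The other 2 unigenes, outside the naming rule and given to complete the group, were highest in roots, with an RPKM of 233 for Unigene35261 and 45.5 for Unigene11580, against 127 and 33.2 in leaves. EARLY FLOWERING 3, the scaffold of the same complex, was matched by Unigene8835, with 51 reads in sepals, 32 (dorsal), 23 (lateral) and 50 (ventral) in petals, 4 in carpels, 147 in stamens, 134 in leaves and 10 in roots. Stamens and leaves were thus nearly level and carpels nearly empty. LHY, the morning repressor, was matched by Unigene63238 with an RPKM of 39.3 in leaves, against 15.2 in sepals, 11.3 (dorsal), 11.7 (lateral) and 7.51 (ventral) in petals, 7.15 in carpels, 7.89 in stamens and 0.908 in roots. The leaf level was 2.59 times the sepal level (1.86 to 3.64), and roots had 3 reads. Leaves were therefore the highest organ of the LHY unigene, whereas the GIGANTEA unigenes stood there at 18.6% to 38.2% of their highest organ. No organ was sampled over time, and the phase of the clock was not tested.

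**Figure D4:**
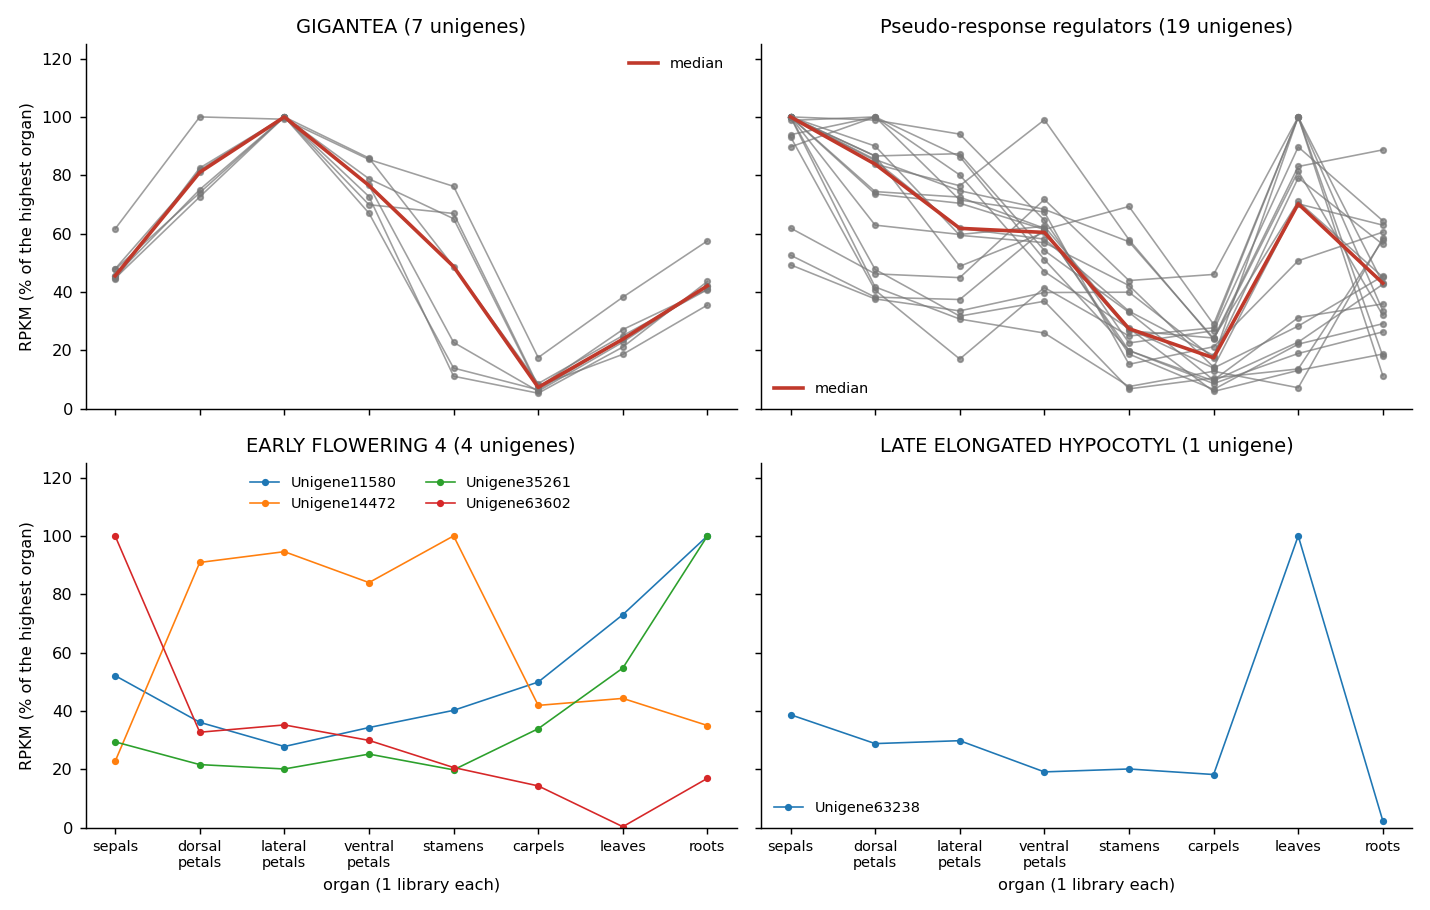
RPKM in each organ as a percentage of the highest organ of the same unigene, for the 7 GIGANTEA unigenes, the 19 pseudo-response regulators, the 4 EARLY FLOWERING 4 unigenes and the LHY unigene; in the upper panels grey lines are single unigenes and red lines their median, and in the lower panels each coloured line is 1 unigene. GIGANTEA peaks in petals, the pseudo-response regulators at the median in sepals, and LHY in leaves.

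The remaining flowering-time members to be named matched proteins that act on chromatin or RNA in Arabidopsis, and their highest organ was 1.99 to 17.3 times their lowest. EARLY FLOWERING IN SHORT DAYS, a histone methyltransferase, was matched by Unigene3153, the longest member, with an RPKM of 20.5 in sepals and in dorsal petals, against 3.11 in carpels, 14.2 in leaves and 16.3 in roots. Unigene3827, another match to it, had an RPKM of 18.7 in sepals, against 5.46 in carpels and 6.66 in stamens. Unigene68646, matched to the chromatin remodeller PHOTOPERIOD-INDEPENDENT EARLY FLOWERING, had the widest range of them, with 95 reads in lateral petals, against 5 in stamens. FLOWERING LOCUS D, a histone demethylase of the autonomous pathway, was matched by Unigene71022 with an RPKM of 19.1 in sepals, 18.8 (dorsal), 18.2 (lateral) and 16.1 (ventral) in petals, 7.34 in carpels, 10.4 in stamens, 16.9 in leaves and 23 in roots. The other matches to it, Unigene12868 and Unigene65846, lay outside the naming rule and were instead highest in carpels. Their carpel RPKM was 14.7 and 14.5, against 9.55 in lateral petals and 10.5 in sepals, the next organs. Unigene9976, matched to the related LDL3, had an RPKM of 22.3 in lateral petals, against 3.71 in stamens and 3.46 in carpels. Unigene32738 matched LDL3 of rice and was instead highest in stamens, with an RPKM of 287, against 206 in ventral petals, 101 in dorsal petals and 43 in roots. Unigene56331, matched to the RNA-binding protein FLK, ranged only 1.99-fold over all organs.

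Set against leaves, the members stood lower in the floral organs than unigenes at large. The comparison took log2 of the mean RPKM of the 6 floral organs plus 0.5 over the leaf RPKM plus 0.5. Its median was -0.21 over the 119 members and 0.59 over all 57576 unigenes. More than 2-fold higher in floral organs were 29 members (24.4%, against 37.6% of all unigenes), and more than 2-fold lower were 36 (30.3%, against 11.9%). RPKM rescaled by TMM factors, which allow for a few abundant transcripts taking many reads of a library, moved the median of all unigenes to 0.20 and that of the members to -0.63. On that scale 14 members were higher (11.8%, against 29.5%) and 47 lower (39.5%, against 17.2%). By family the medians ran from 1.27 in GIGANTEA to -2.49 in phototropins. The 7 phytochrome receptors had a median of -0.96, with 2 beyond 2-fold lower, and all 7 beyond it after TMM rescaling. GIGANTEA was more than 2-fold higher in 6 unigenes, but in 1 after TMM rescaling. The cryptochrome median was 0.26 and changed sign to -0.11 with TMM, and that of the EARLY FLOWERING unigenes, 0.02, changed to -0.43.

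Set against roots, the members stood higher in the floral organs than unigenes at large. The median of the same log2 value was 0.72 over the members and 0.18 over all unigenes, and 50 members were more than 2-fold higher (42%, against 30.2%), while 8 were lower (6.72%, against 15%). Phototropins had a median of 3.07, cryptochromes 1.45 and the CONSTANS family 1.30, of which 15 of 23 unigenes were higher. LHY stood at 2.92. The phytochrome receptors, at -0.48, the EARLY FLOWERING unigenes, at -0.21, and the FLOWERING LOCUS unigenes, at -0.19, had medians below 0. Both comparisons use the same floral libraries. Beyond 2-fold higher than in roots and lower than in leaves were 26 members, 12 were higher than in both and 4 were lower than in both. The shares of all unigenes in these joint classes were not computed, so the counts cannot be set against unigenes at large.

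Along the dorsoventral axis of the flower the members leaned to the dorsal side. The median log2 of dorsal over ventral petals was 0.25, against 0.01 over all unigenes. Of the 119 members, 14 were more than 2-fold higher in dorsal petals (11.8%, against 9.17% of all unigenes) and 3 were lower (2.52%, against 11.9%). The 14 had 5 to 1230 reads in dorsal petals and 9 of them at least 30. They included the phototropins Unigene8956 and Unigene70291, the phytochrome A unigene Unigene68712, Unigene70164 and the DASH cryptochrome Unigene10939, whose dorsal level was 3 times the ventral level (95% interval 1.64 to 5.78). Lower in dorsal petals were Unigene32738, with 118 reads against 236 in ventral petals (ratio 0.489, 0.389 to 0.612), Unigene2289, a cryptochrome 2 match named after its values were seen, with 4 against 20, and Unigene653, with 0 against 3. The pollen list, at 345 RPM in dorsal and 878 in ventral petals, differed along the same axis, and its part in these ratios was not tested. No member had 30 reads in the higher petal and a ratio of 4 or more.

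**Figure D5:**
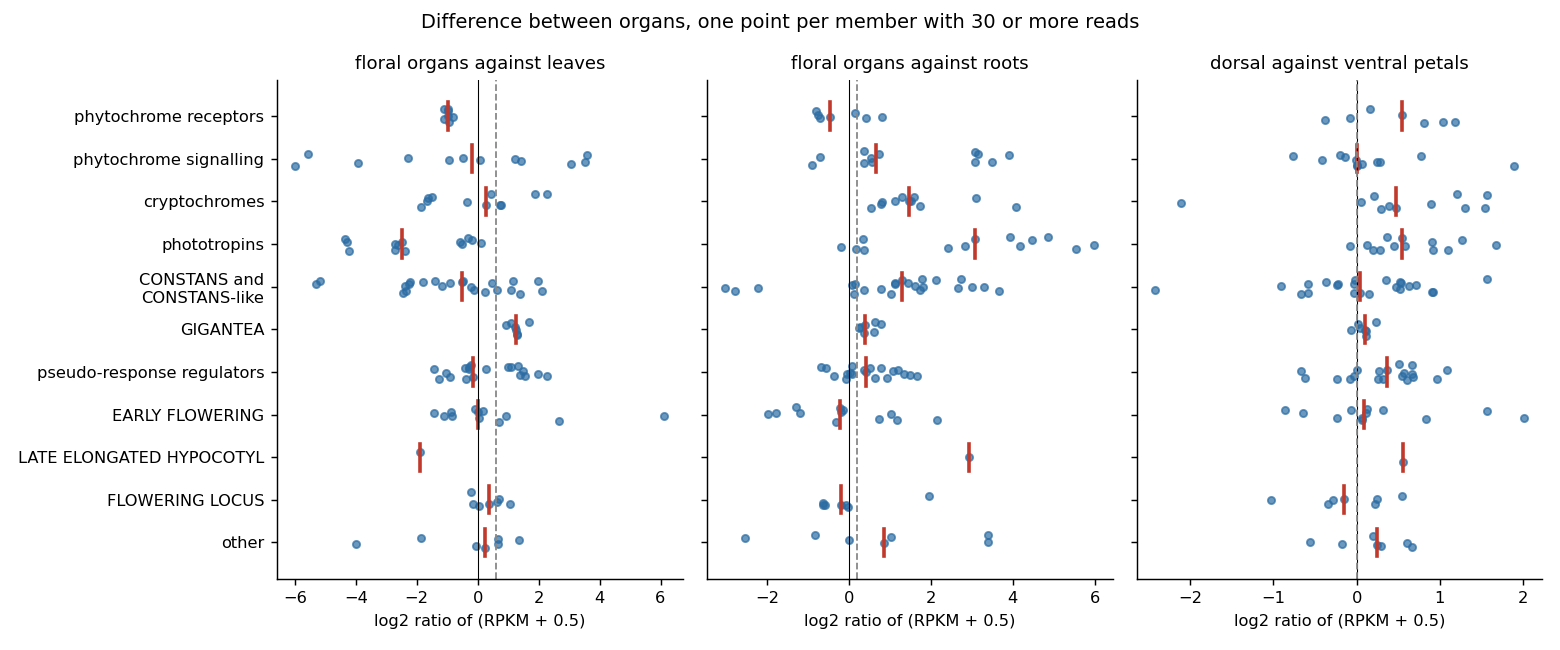
Log2 ratio of RPKM plus 0.5 (horizontal axis) by family (vertical axis) for the floral organs over leaves, the floral organs over roots, and dorsal over ventral petals; each blue point is 1 member with at least 30 reads, red bars are family medians, the dashed line is the median of all unigenes and the solid line marks no difference. Phototropins lie lowest against leaves, at a median of -2.49, and highest against roots, at 3.07.

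The neighbouring genes of these pathways, taken from a list of other light and clock names, held 53 unigenes. Of them 21 were found by the words for COP1, the ubiquitin ligase that removes light-signalling factors in the dark, and 15 of these were COP1-interacting or related proteins rather than COP1. In leaves 8 of the 53 were enriched (15.1%, against 4.03% of all unigenes), and in carpels 15 were downregulated (28.3%, against 17.5%). Among the 51 with at least 30 reads the median log2 of floral organs over leaves was -0.08, with 16 more than 2-fold higher (31.4%, against 37.6% of all unigenes) and 11 lower (21.6%, against 11.9%). Against roots 12 were higher (23.5%, against 30.2%) and 9 lower (17.6%, against 15%). Both unigenes matched to CIRCADIAN CLOCK ASSOCIATED 1 shared the leaf peak of LHY. Unigene20833, matched to CIRCADIAN CLOCK ASSOCIATED 1 of ice plant, had an RPKM of 1120 in leaves, against 34.5 in sepals, 69.2 to 124 in petals, 22.2 in carpels, 86.6 in stamens and 13.1 in roots. Unigene27483, a match to the Arabidopsis protein, had an RPKM of 553 in leaves, 10.4 times the 53.3 in ventral petals (95% interval 7.87 to 14). For both, ventral petals and not sepals were the second organ, although in Unigene27483 stamens, at an RPKM of 51.9, were nearly level with them. Cycling DOF factors, repressors of CONSTANS, were mixed. Of their 7 unigenes 3 were highest in leaves, among them Unigene18122 with 655 reads in leaves, against 95 in ventral petals, 47 in sepals and 3 in roots. Another 2 were highest in carpels, among them Unigene69090 with 44 reads in carpels, against 2 in leaves, where it was called downregulated. The unigenes named among the neighbouring genes were all chosen for mention after their values were seen. Unigene46404, matched to TIMING OF CAB EXPRESSION 1, had 255 reads in sepals, against 48 in leaves and 12 in carpels. Unigene71670, matched to ZEITLUPE, had 918 reads in sepals, against 33 in leaves, a ratio of 23.7 (16.8 to 34.6). It stood apart from the other 7 unigenes of the ZEITLUPE and FKF1 list, whose sepal RPKM was 0.656 to 1.72 times the leaf RPKM and above it in only 1.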

How the data were processed

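RNA of 8 organs was sequenced by the authors on an Illumina instrument as 1 library per organ. For these libraries the paper names only an RNA-Seq protocol. It describes poly(A) purification, fragmentation and copying with random hexamers for the pooled library used in the assembly. The deposited counts are uniquely aligned reads per unigene, not normalized, where the unigenes were assembled de novo from a pool of the organs. The aligner's name was not given in the sources used here, and a genome build does not apply. The deposited RPKM divides them by unigene length and library total. The deposited coverage is the percent of a unigene's bases under a read, with a median over the members of 84.6% in carpels to 97.3% in sepals. Unigene sequences were not analysed here.

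The 8 tables were joined by unigene, with 0 reads where one was not listed. RPKM recomputed from the counts differed from the deposited RPKM by a relative 5.58e-09 at most. The Ratio for a low organ was taken against the highest other organ and the SD was the sample SD. Fold comparisons needed 30 reads summed over the libraries, and called beyond 2-fold after adding 0.5 RPKM. Intervals are exact, Poisson for levels and Clopper-Pearson for ratios, at 95%. With 1 library per organ no test was run. The call rules were tested on simulated data.

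The 123 members, the gene lists and the tests were chosen with earlier results of these data known. Unigenes qualified for naming when among the 4 of a family with the most reads, enriched with 30 reads in the organ, 8-fold variable with 100 reads in all, or 4-fold different between dorsal and ventral petals with 30 reads. This rule selected 80 members, and not all of them are described above. A further list of light and clock names and 4 marker lists were fixed by nr text. Alternatives changed the scaling, the filters, the SD, the depth, the pseudocount, the Ratio and the membership. Python 3.11.15, pandas 2.3.3, scipy 1.17.1 and matplotlib 3.10.9 were used, and the TMM factors came from edgeR 4.0.16 in R 4.3.3.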

Additional observations from a re-analysis of the deposited data

How the results depend on the processing

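The libraries had no replicates, so leaving a replicate out was not possible. No paired analysis was possible because each organ has 1 library. With a Ratio above 4, 9 members in all and 8 in leaves were enriched. Shares of all unigenes are given here only for TMM rescaling. The counts under the other alternatives therefore have no background beside them. With TMM rescaling, 14 members were more than 2-fold higher in floral organs than in leaves (11.8%, against 29.5% of all unigenes). The median over the members was then -0.63. With at least 100 reads, 3 members were more than 2-fold lower in floral organs than in roots, and with no minimum of reads 5 were lower in dorsal than in ventral petals. Restricting the members to matches with an E-value of 1e-10 or lower, an alternative chosen after seeing the data, removes members by construction: 19 were then enriched (25%), 33 downregulated (43.4%), 24 in carpels (31.6%) and 2 in roots (2.63%). Under it 18 were higher (24.7%) and 22 lower (30.1%) in floral organs than in leaves, 28 higher (38.4%) and 4 lower (5.48%) than in roots with a median of 0.53, and 8 higher (11%) and 1 lower (1.37%) in dorsal than in ventral petals. Taking 1 unigene per nr accession, also chosen after seeing the data, kept the counts over all organs within 1.5 times, but by organ left 1 member enriched in roots, 0 downregulated in sepals and 1 in leaves. Under another pseudocount none of the 3 log2 values of the 80 members selected for naming changed sign. With TMM rescaling 5 changed sign for floral organs against leaves (Unigene45029, 0.24 and then -0.21, Unigene3153, 0.04 and -0.42, Unigene68033, 0.08 and -0.36, Unigene8956, 0.12 and -0.39, and Unigene9976, 0.05 and -0.41), 4 for dorsal against ventral petals, all within 0.05 of 0, and 0 against roots. The precision of a value is limited by its reads, 30 being the minimum for a fold.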
